A study of Homo sapiens with 4 samples.

Results

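The genes described here are transcription factors that set the fate of myeloid cells: SPI1, CEBPA, CEBPB, CEBPD, IRF8, KLF4, MYB, RUNX1 and BCL6. They were taken by symbol, from probe sets whose platform annotation lists a single gene. Of the 9 genes, 8 had such probe sets, 13 in all, out of 19775 genes and 54675 probe sets on each array. All 13 probe sets listed for RUNX1, a core-binding factor subunit of blood stem cells, also list other genes, and RUNX1 is therefore not reported. RNA was measured on 4 arrays, 1 for each of Siglec-14,NTHi[+], Siglec-14,NTHi[-], Siglec-5,NTHi[+] and Siglec-5,NTHi[-]. Both lines derive from THP-1, a human monoblastoid leukemia line, and express either Siglec-14 or Siglec-5, sialic acid-binding receptors of myeloid cells. NTHi[+] cells were incubated for 6 h with heat-killed nontypeable Haemophilus influenzae strain 2019 at 100 bacteria per cell, and NTHi[-] cells for the same time without bacteria, all in a serum-free macrophage medium. The lines stand for monocytes with and without SIGLEC14, but each is 1 derived line measured once per condition, so that the receptor and any other difference between the sublines cannot be told apart.

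PU.1 (encoded by SPI1) and C/EBPα (CEBPA) open the myeloid program in blood progenitors, and C/EBPβ and C/EBPδ (CEBPB, CEBPD) act in mature and inflamed myeloid cells. IRF8 and KLF4 direct progenitors to the monocyte fate, while MYB keeps progenitors dividing and is known to decline as they mature. BCL6 is a zinc-finger repressor, best known from germinal center B cells, and in macrophages of mice it restrains inflammatory genes.

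The difference that stood out was between the lines and concerned BCL6, which was higher in Siglec-14/THP-1, and MYB, which was lower there. The other 6 factors did not pass the test in either direction on the signals as deposited, and no factor passed it for NTHi. BCL6 had signals of 249 in Siglec-14,NTHi[+], 181 in Siglec-14,NTHi[-], 24.3 in Siglec-5,NTHi[+] and 29.6 in Siglec-5,NTHi[-]. MYB had signals of 2708 in Siglec-14,NTHi[+], 3055 in Siglec-14,NTHi[-], 4111 in Siglec-5,NTHi[+] and 4884 in Siglec-5,NTHi[-]. For both genes the arrays of the lines did not overlap, whichever condition they held, which was also so for CEBPB, KLF4, CEBPD and IRF8. With so few arrays such a separation is easily reached, and its share over all genes was not counted.

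The RefSeq promoter windows of BCL6 and MYB are shown because these are the factors that differed between the lines. Each window covers 250 bases before and 50 after a transcription start, in build GRCh38.p14. BCL6 lies on chromosome 3 (minus strand) and has windows at chr3:187745419-187745718 and, for another start, at chr3:187736452-187736751. MYB lies on chromosome 6 (plus strand), with its window at chr6:135181058-135181357. Capitals mark TTCNNNGAA (N is any base), the paired half-sites bound by STAT proteins and close to the BCL6 site, in the first BCL6 window. They mark the AP-1 site TGACTCA, read on either strand, in the second BCL6 window, and the E2F core GGCGGGA, read on either strand, in the MYB window.
BCL6, first window: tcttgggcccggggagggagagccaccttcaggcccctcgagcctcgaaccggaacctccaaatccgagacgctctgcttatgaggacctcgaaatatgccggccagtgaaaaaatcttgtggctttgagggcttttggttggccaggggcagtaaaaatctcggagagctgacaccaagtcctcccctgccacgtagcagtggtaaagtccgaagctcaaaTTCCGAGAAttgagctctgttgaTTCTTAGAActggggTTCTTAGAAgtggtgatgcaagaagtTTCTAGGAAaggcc
BCL6, second window: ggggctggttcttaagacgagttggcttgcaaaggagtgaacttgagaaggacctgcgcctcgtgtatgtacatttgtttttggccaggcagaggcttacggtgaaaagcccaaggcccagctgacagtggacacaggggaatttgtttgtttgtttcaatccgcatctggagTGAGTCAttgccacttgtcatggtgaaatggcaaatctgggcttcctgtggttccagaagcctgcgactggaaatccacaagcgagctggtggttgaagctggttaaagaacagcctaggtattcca
MYB: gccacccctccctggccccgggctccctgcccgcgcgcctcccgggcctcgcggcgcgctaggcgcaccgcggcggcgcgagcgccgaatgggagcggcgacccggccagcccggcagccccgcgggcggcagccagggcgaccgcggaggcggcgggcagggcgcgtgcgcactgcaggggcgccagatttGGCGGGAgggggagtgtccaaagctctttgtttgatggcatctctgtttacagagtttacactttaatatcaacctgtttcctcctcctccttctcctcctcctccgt
The first BCL6 window held 4 matches to TTCNNNGAA, a palindrome that reads alike on both strands, starting at -28, -5, 11 and 37 relative to the start site. At least 1 match occurred in 7.66% of 35116 windows of the same length, and at least 4 in 0.0199%. The windows of MYB, KLF4, IRF8, CEBPA, CEBPB and RUNX1 that were searched had 0 matches. The AP-1 match lay at -77 in the second BCL6 window, and 4.95% of all windows held at least 1. The E2F core lay at -58 in the MYB window, and 15.4% of windows held at least 1. The same core lay at -74 in a CEBPB window and at 29 in the RUNX1 window. TTGCNNAA (C/EBP), CGGAAG (ETS) and AACNGTT (MYB), read on both strands, had no match in any of the members' windows searched. No capitals overlap between motifs, and the matches describe the letters and do not show that a factor was bound.

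With 1 array per condition, the ratio of a pair of arrays has no error of its own and no test. The additive limma fit over all 4 arrays tests a line difference shared by both conditions, or an NTHi response shared by both lines. Its standard errors come from the spread of probe sets of similar intensity, and they do not hold the spread between cultures.

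The ratio of BCL6 signal in Siglec-14/THP-1 to that in Siglec-5/THP-1 was 10.2 with NTHi and 6.12 without. BCL6 was the 1 factor of 8 that differed by 3-fold or more, in each condition. Among all genes whose higher signal reached the floor of 16, the median of all signals, 5.75% did so with NTHi and 5.21% without. At 1.5-fold or more, 3 factors differed with NTHi (CEBPB, MYB and BCL6), against 22.8% of genes, and 3 without (KLF4, MYB and BCL6), against 22.9%. The ratio of BCL6 was reached or exceeded by 111 of 13099 genes that reached the floor with NTHi and by 207 of 13284 without, BCL6 included. In log2 units the line term of BCL6 was 2.98 (standard error 0.22, 95% interval 2.55 to 3.41, limma adjusted p = 2.73e-39).
The dimmer probe sets of BCL6 lay on the same side where they reached the floor. The second probe set had signals of 32.1 in Siglec-14,NTHi[+], 32.8 in Siglec-14,NTHi[-], 2.68 in Siglec-5,NTHi[+] and 1.84 in Siglec-5,NTHi[-]. Against the floor, this is at least 2.01-fold higher in Siglec-14/THP-1 with NTHi and at least 2.04-fold without. The third probe set, with 30.6 and 12 in Siglec-14,NTHi[+] and Siglec-14,NTHi[-] and 3.48 and 1.79 in Siglec-5,NTHi[+] and Siglec-5,NTHi[-], reached the floor on 1 array, which makes it at least 1.91-fold higher in Siglec-14/THP-1 with NTHi. Without NTHi both of its signals lay under the floor, where a signal is not told apart from background here, and it gives neither a direction nor a bound.

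**Figure D1:**
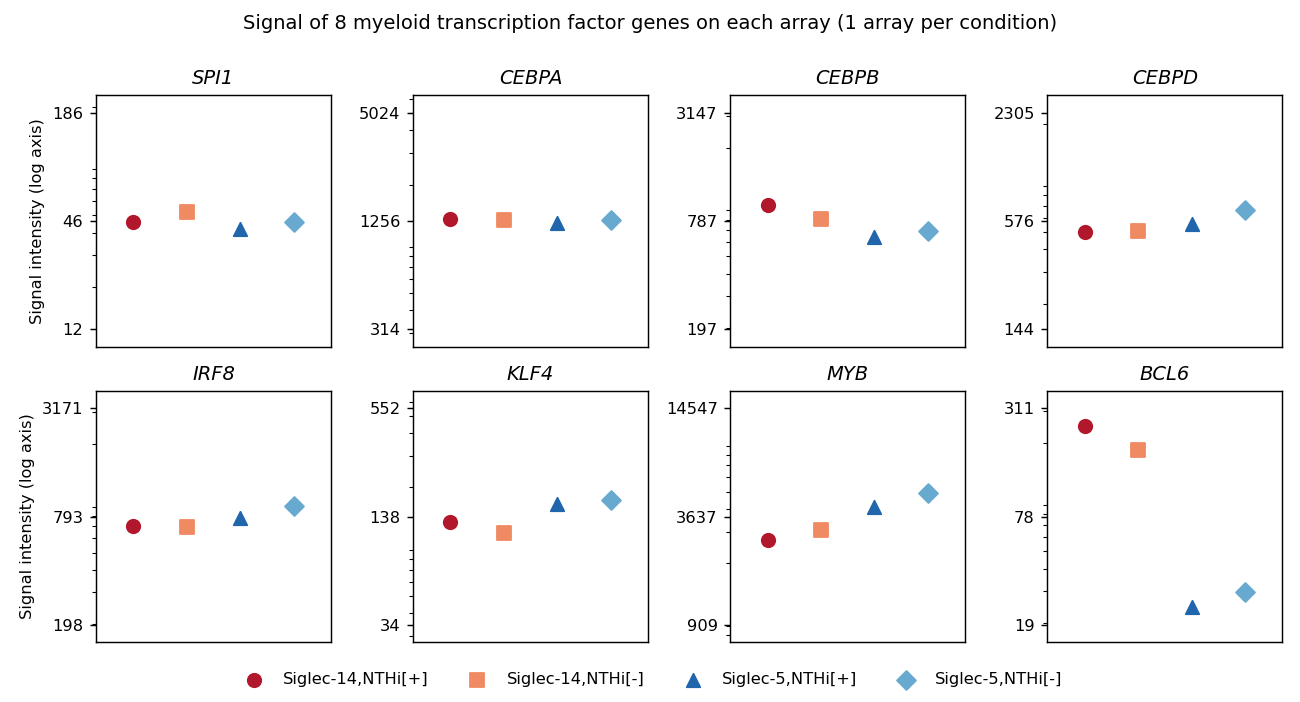
Signal intensity (log axis, each panel spanning the same 25-fold range) of the 8 factors on the 4 arrays, 1 point per array. BCL6 is the 1 panel in which the Siglec-14 arrays (249 and 181) lie far from the Siglec-5 arrays (24.3 and 29.6).

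MYB was the other factor past the test for line, and it lay on the opposite side. On the linear scale its signal in Siglec-14/THP-1 was 0.659 times that in Siglec-5/THP-1 with NTHi and 0.625 times without. Its log2 line term was -0.64 (standard error 0.16, 95% interval -0.96 to -0.32, limma adjusted p = 0.00251). The dimmer probe set of MYB had signals of 43.4 in Siglec-14,NTHi[+], 40.5 in Siglec-14,NTHi[-], 81.3 in Siglec-5,NTHi[+] and 102 in Siglec-5,NTHi[-]. Its line term was -1.12 (standard error 0.24, limma adjusted p = 9.78e-05), so the bright and the dim probe set of MYB both separated the lines. In all, 2 of 8 factors passed for line, 1 in each direction, while 11.2% of 13935 genes tested passed, 6.24% higher and 4.95% lower in Siglec-14/THP-1. At an unadjusted p under 0.05 these numbers were 4 of 8 (with CEBPB and KLF4) and 22.3%. Without limma's intensity trend, 0 of the 8 factors and 0 of all genes passed for line.

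**Figure D2:**
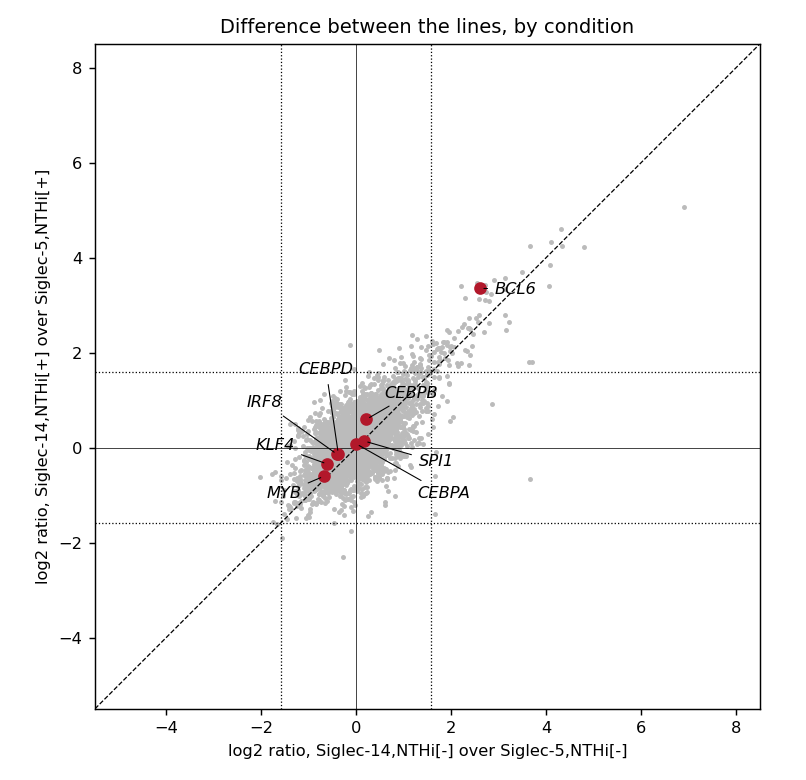
log2 signal ratio of Siglec-14/THP-1 to Siglec-5/THP-1 with NTHi (y axis) and without NTHi (x axis) for 11033 genes that reached the floor on each of the 4 arrays; the 8 factors are red. Ratios are equal on the dashed line and 3-fold on the dotted lines; BCL6 lies beyond 3-fold on both axes, and the other 7 factors lie within it.

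CEBPB and KLF4 lay next to the threshold, in opposite directions. CEBPB, which drives inflammatory and acute-phase genes, had signals of 967 in Siglec-14,NTHi[+], 801 in Siglec-14,NTHi[-], 640 in Siglec-5,NTHi[+] and 690 in Siglec-5,NTHi[-]. Both Siglec-14 arrays were thus above both Siglec-5 arrays, with a line term of 0.41 (standard error 0.15, limma adjusted p = 0.0748). KLF4 had 128 in Siglec-14,NTHi[+], 112 in Siglec-14,NTHi[-], 162 in Siglec-5,NTHi[+] and 170 in Siglec-5,NTHi[-]. Here both Siglec-14 arrays were below both Siglec-5 arrays, with a line term of -0.48 (standard error 0.18, limma adjusted p = 0.0855). With the arrays scaled to an equal sum, the adjusted p was 7.90e-07 for CEBPB and 0.0192 for KLF4, and both passed under the other scalings tried as well.

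CEBPD and IRF8 had their highest signal in Siglec-5,NTHi[-]. CEBPD, which rises early in acute-phase responses, had 503 in Siglec-14,NTHi[+], 509 in Siglec-14,NTHi[-], 551 in Siglec-5,NTHi[+] and 660 in Siglec-5,NTHi[-]. The line term of CEBPD was -0.25 (95% interval -0.55 to 0.05, limma adjusted p = 0.392). IRF8, which the monocyte and dendritic lineages need, had 702 in Siglec-14,NTHi[+], 690 in Siglec-14,NTHi[-], 774 in Siglec-5,NTHi[+] and 911 in Siglec-5,NTHi[-]. The line term of IRF8 was -0.27 (95% interval -0.57 to 0.03, limma adjusted p = 0.338). The lines did not overlap for either gene, but the difference did not pass the test. IRF8 passed under each of the 4 scalings tried, and CEBPD at an equal median (limma adjusted p = 0.0177).

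The founding factors of the myeloid program showed the smallest spread over the arrays. CEBPA had signals of 1292 in Siglec-14,NTHi[+], 1271 in Siglec-14,NTHi[-], 1221 in Siglec-5,NTHi[+] and 1274 in Siglec-5,NTHi[-]. The highest of these was 1.06 times the lowest, and the line term was 0.04 (95% interval -0.26 to 0.34). SPI1 had 45.8 in Siglec-14,NTHi[+], 51.8 in Siglec-14,NTHi[-], 41.7 in Siglec-5,NTHi[+] and 45.9 in Siglec-5,NTHi[-]. Its line term was 0.15 (95% interval -0.38 to 0.69), and its lines overlapped. On at least 1 array SPI1 and BCL6 had a signal under the 75th percentile of the array values (105), and the remaining 6 did not. The signals of different probe sets are not comparable, so SPI1 is not ranked against the others.

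**Figure D3:**
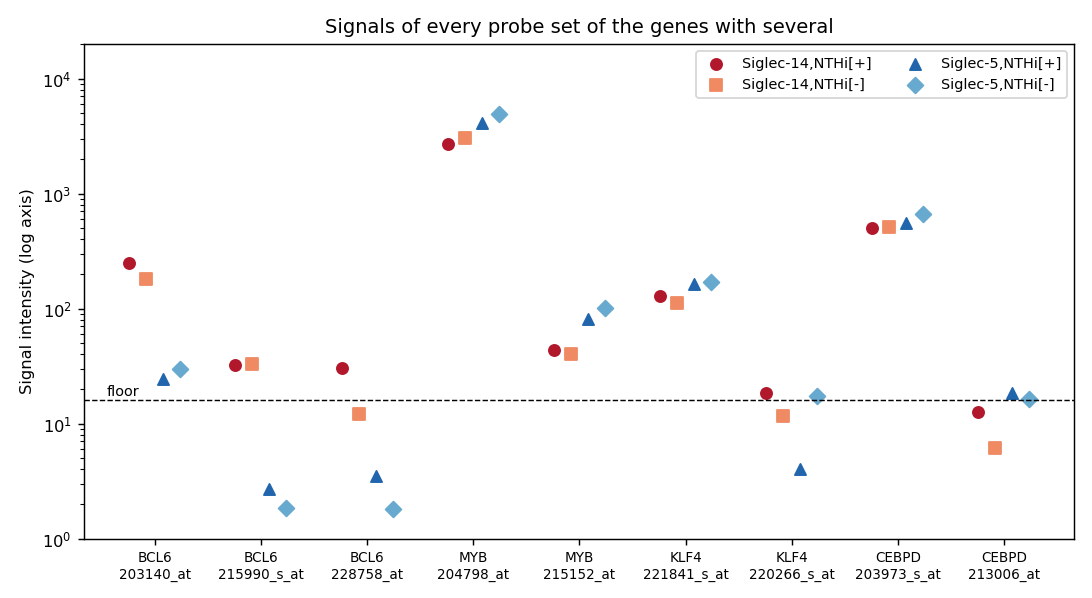
Signal intensity (log axis) of every probe set of BCL6, MYB, KLF4 and CEBPD on the 4 arrays, with the floor of 16 as a dashed line. Both probe sets of MYB keep the order of the lines, as do those of BCL6 where they reach the floor, while the dim probe sets of KLF4 and CEBPD lie around the floor.

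The second probe sets of KLF4 and CEBPD were too dim to add to these values. That of KLF4 had 18.5 in Siglec-14,NTHi[+], 11.7 in Siglec-14,NTHi[-], 4.05 in Siglec-5,NTHi[+] and 17.5 in Siglec-5,NTHi[-]. That of CEBPD had 12.6 in Siglec-14,NTHi[+], 6.15 in Siglec-14,NTHi[-], 18.5 in Siglec-5,NTHi[+] and 16.4 in Siglec-5,NTHi[-]. Both lay on either side of the floor. The dim probe set of KLF4 mixed the arrays of the lines, unlike its brighter probe set. That of CEBPD had both Siglec-5 arrays above both Siglec-14 arrays, as on its brighter probe set, but the order within each line was reversed.

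NTHi was accompanied by small differences in these factors. Of the 8, 0 differed by 3-fold or by 1.5-fold or more between NTHi[+] and NTHi[-] in either line, and 0 passed limma's test for NTHi or had an unadjusted p under 0.05. Among all genes, 3.60% differed by 3-fold and 14.3% by 1.5-fold or more in Siglec-14/THP-1, 3.95% and 15.0% did in Siglec-5/THP-1, and 1.28% passed the test for NTHi, with 6.72% at an unadjusted p under 0.05. The log2 ratio of NTHi[+] to NTHi[-] ran from -0.17 (MYB and SPI1) to 0.45 (BCL6) in Siglec-14/THP-1, with a median of 0.02, against 0.08 over all genes at or above the floor. In Siglec-5/THP-1 it ran from -0.29 (BCL6) to -0.06 (CEBPA), with a median of -0.19, against -0.11 over all genes. As deposited, all 8 factors and the median of all genes were thus below 0 in Siglec-5/THP-1. Under the 4 scalings tried this sign held for SPI1, CEBPD, IRF8, MYB and BCL6, but CEBPA had 0.00 to 0.04 there, KLF4 0.03 to 0.04 under 3 of them and CEBPB 0.01 by quantiles. The shared NTHi term of CEBPB was 0.08 (95% interval -0.21 to 0.38), that of CEBPD -0.14 (95% interval -0.44 to 0.16) and that of IRF8 -0.11 (95% interval -0.40 to 0.19). Those of SPI1 (-0.69 to 0.38) and BCL6 (-0.34 to 0.51) had wider 95% intervals. With each gene read from its brightest probe set, MYB had the most negative shared NTHi term, -0.21 (standard error 0.16). On that probe set its signal was the lower one with NTHi in each line. On the dimmer probe set of MYB the ratio of NTHi[+] to NTHi[-] was 1.07 in Siglec-14/THP-1 and 0.798 in Siglec-5/THP-1. The shared NTHi term there was -0.11 (standard error 0.24). The brighter probe set of MYB passed for NTHi when the arrays were scaled to an equal sum, to an equal trimmed mean or by quantiles, but not at an equal median.

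BCL6 had the largest difference of responses between the lines among the 8. On its brightest probe set the ratio of NTHi[+] to NTHi[-] was 1.37 in Siglec-14/THP-1 and 0.821 in Siglec-5/THP-1. In Siglec-14/THP-1 the second probe set had a ratio of 0.981, and the third was at least 1.91-fold higher with NTHi. Both lay under the floor in Siglec-5/THP-1, so the difference rests on the brightest probe set. There the log2 response in Siglec-14/THP-1 minus that in Siglec-5/THP-1 was 0.74, while probe sets of this intensity have a spread of 0.44 for such a difference. For the other 7 factors it ran from -0.03 (SPI1) to 0.38 (CEBPB). A fit with an interaction term would leave no residual, so these differences were not tested.

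**Figure D4:**
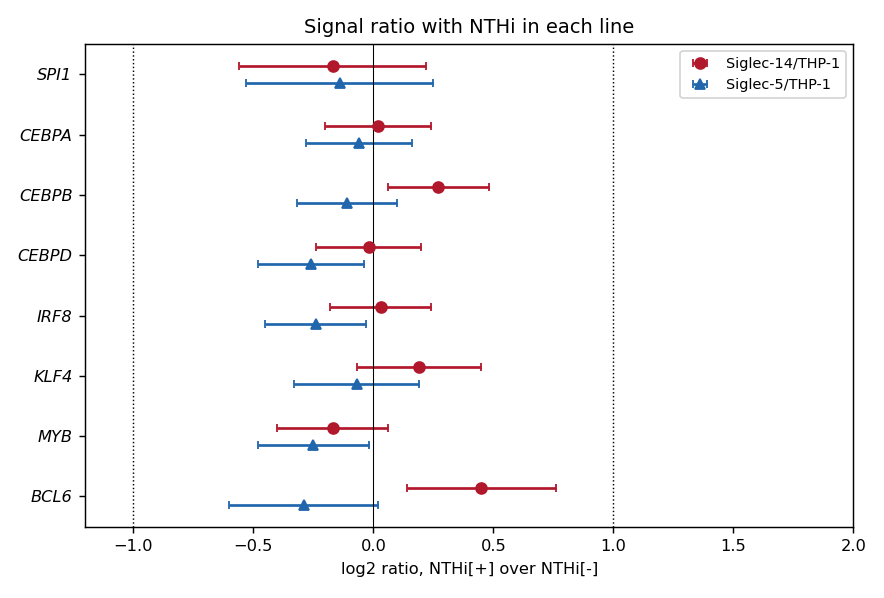
log2 signal ratio of NTHi[+] to NTHi[-] for each factor in Siglec-14/THP-1 (red circles) and Siglec-5/THP-1 (blue triangles). Error bars are 1 SD expected for the ratio of a pair of arrays from limma's trend at that intensity, and dotted lines mark 2-fold; the points lie between -0.29 and 0.45.

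BCL6 was the 1 factor whose highest signal was at least 2-fold its lowest over its representing probe set, and the genes with the most similar pattern were sought for it. Likeness was the root mean square distance between log2 signals, each centered on its mean over the 4 arrays, among 7335 genes at or above the 75th percentile on every array. The nearest was CDKN1C, an inhibitor of cyclin-dependent kinases, at a distance of 0.17. It had signals of 1038 in Siglec-14,NTHi[+], 838 in Siglec-14,NTHi[-], 117 in Siglec-5,NTHi[+] and 171 in Siglec-5,NTHi[-], the order of arrays seen for BCL6. RGS2, which restrains G protein signaling, followed at 0.22, with 2291 in Siglec-14,NTHi[+], 2143 in Siglec-14,NTHi[-], 194 in Siglec-5,NTHi[+] and 243 in Siglec-5,NTHi[-]. MMP9, the secreted gelatinase, was the third at 0.30, with 2304 in Siglec-14,NTHi[+], 1282 in Siglec-14,NTHi[-], 268 in Siglec-5,NTHi[+] and 194 in Siglec-5,NTHi[-]. Multiplying an array by 1 factor leaves these distances unchanged, so of the scalings tried only that by quantiles could alter them. By quantiles the same 3 genes were nearest.

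Genes that BCL6 is known to repress in B cells differed between the lines in both directions. Of 9 listed, 7 had a probe set of their own and 6 reached the floor. In the limma fit 4 were higher in Siglec-14/THP-1 and 1 was lower, while 11.2% of all genes tested passed for line. The median line term was 1.33 on the log2 scale, against -0.03 over all genes tested. ID2, an inhibitor of basic helix-loop-helix factors, had signals of 1522 in Siglec-14,NTHi[+] and 1152 in Siglec-14,NTHi[-], against 269 in Siglec-5,NTHi[+] and 218 in Siglec-5,NTHi[-]. GPR183, an oxysterol receptor that guides lymphocytes, had 313 and 482 in Siglec-14,NTHi[+] and Siglec-14,NTHi[-], against 45.1 and 80.1 in Siglec-5,NTHi[+] and Siglec-5,NTHi[-]. Both genes were thus higher in the line with more BCL6, and so was PRDM1, the repressor of plasma cell fate, with 277 in Siglec-14,NTHi[+] and 239 in Siglec-14,NTHi[-] against 134 in Siglec-5,NTHi[+] and 98.3 in Siglec-5,NTHi[-]. CXCL10, a T cell chemokine counted among the 4, was higher in Siglec-14/THP-1 only without NTHi (807, against 63.8 in Siglec-5/THP-1). It was lower there with NTHi (2035, against 3220 in Siglec-5/THP-1). The exception was CCND2, a cyclin of the early cell cycle, with 272 in Siglec-14,NTHi[+] and 280 in Siglec-14,NTHi[-] against 600 in Siglec-5,NTHi[+] and 835 in Siglec-5,NTHi[-] (line term -1.36, limma adjusted p = 2.71e-16). For NTHi, CXCL10 passed as higher and GPR183 fell by 0.73 on the log2 scale (limma adjusted p = 0.00825). The shared NTHi term of CXCL10, 3.50, averages log2 ratios of 1.33 in Siglec-14/THP-1 and 5.66 in Siglec-5/THP-1 and describes neither line.
The corepressors that BCL6 is known to recruit differed little. While 11.2% of all genes tested passed for line, of 7 corepressors with a probe set of their own 0 were higher and 1 was lower in Siglec-14/THP-1. This was HDAC4, a class II histone deacetylase, with 148 in Siglec-14,NTHi[+] and 179 in Siglec-14,NTHi[-] against 315 in Siglec-5,NTHi[+] and 378 in Siglec-5,NTHi[-]. The median line term of the corepressors was -0.08.

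Among known target genes of PU.1 and C/EBP factors, 5 passed for line, in both directions. Of 15 listed, 13 reached the floor, and 3 were higher and 2 lower in Siglec-14/THP-1, with a median line term of -0.09. Of all genes tested, 11.2% passed for line. The higher ones were TYROBP, the adaptor DAP12, ITGAM, the integrin CD11b, and CSF2RB, the shared receptor chain for GM-CSF. ITGAM had 353 in Siglec-14,NTHi[+] and 290 in Siglec-14,NTHi[-] against 167 in Siglec-5,NTHi[+] and 198 in Siglec-5,NTHi[-] (line term 0.81, limma adjusted p = 3.54e-05). The lower ones were MPO, the peroxidase of primary granules, and MS4A3, a marker of granulocyte-monocyte progenitors, 2 genes of immature cells. MPO had 1365 in Siglec-14,NTHi[+] and 1152 in Siglec-14,NTHi[-] against 2186 in Siglec-5,NTHi[+] and 2408 in Siglec-5,NTHi[-] (line term -0.87, limma adjusted p = 1.11e-06). MS4A3 had 2590 in Siglec-14,NTHi[+] and 2524 in Siglec-14,NTHi[-] against 4093 in Siglec-5,NTHi[+] and 4485 in Siglec-5,NTHi[-], while ELANE, the neutrophil elastase of the same granules, had a line term of -0.10 (limma adjusted p = 0.862). For NTHi, 0 of the 13 passed, and 1.28% of all genes did.

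**Figure D5:**
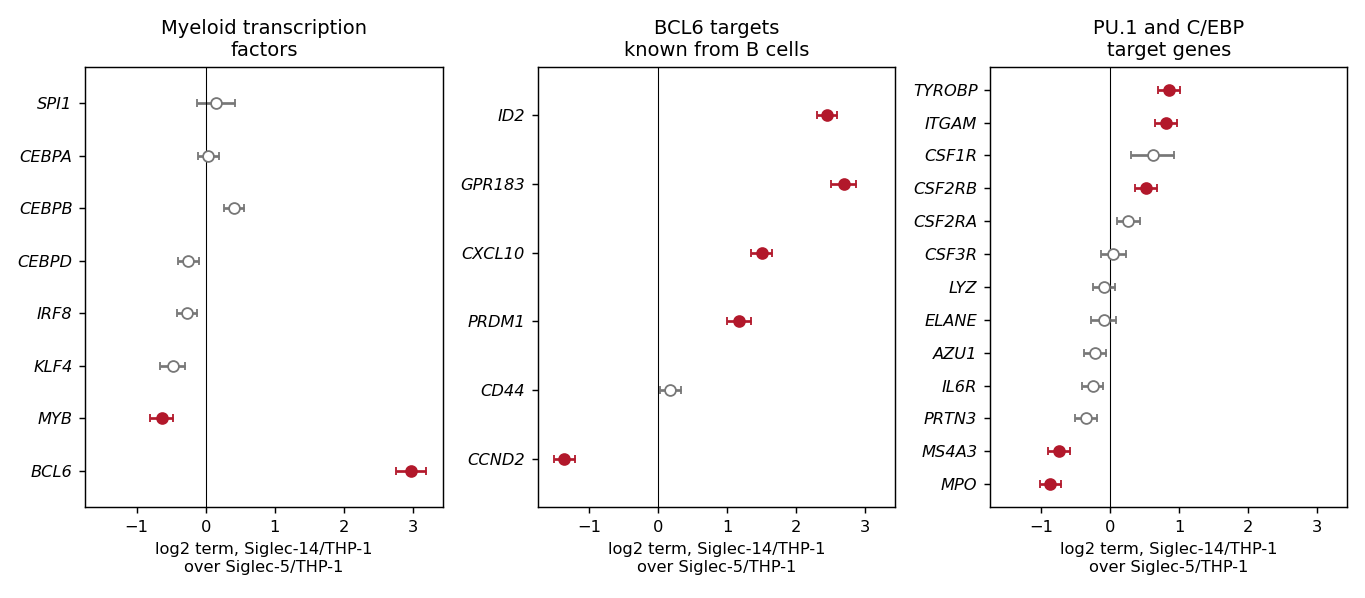
Line term (log2, Siglec-14/THP-1 over Siglec-5/THP-1) with its standard error from limma's additive fit for the 8 factors, 6 B cell targets of BCL6 and 13 targets of PU.1 and C/EBP that reached the floor. Filled red points passed at an adjusted p under 0.05; among the factors these are BCL6 and MYB.

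Acute-phase and cytokine genes with known C/EBP sites included some that passed for NTHi, unlike the C/EBP genes themselves. Of 8 with a probe set of their own 5 reached the floor, and 2 rose and 1 fell with NTHi. Of all genes tested, 1.28% passed for NTHi and 11.2% for line. C3, the central complement protein, had 1823 in Siglec-14,NTHi[+] and 1090 in Siglec-14,NTHi[-], and 523 in Siglec-5,NTHi[+] and 86.9 in Siglec-5,NTHi[-]. PTX3, a soluble pattern receptor, had 438 and 283 in Siglec-14/THP-1 and 853 and 452 in Siglec-5/THP-1, with and without NTHi. HP, which encodes haptoglobin, fell to 398 in Siglec-14,NTHi[+], against 623 in Siglec-14,NTHi[-], and to 394 in Siglec-5,NTHi[+], against 647 in Siglec-5,NTHi[-] (term -0.68, limma adjusted p = 0.00205). For line, C3 was higher and PTX3 lower in Siglec-14/THP-1.

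Relatives and partners of the factors passed for line in part, in both directions. Of 39 tested, 11 passed (28.2%, against 11.2% of all genes). The share of all genes was 14.3% when only probe sets with a geometric mean signal of at least 32 were fitted. The share of the relatives and partners in that fit was not counted, so 14.3% is not a like comparison for 28.2%. The lists were chosen with earlier results of these data known, so the shares are a description. For NTHi, 0 passed among 4 C/EBP relatives, 9 ETS, 7 IRF and 10 KLF genes and 9 relatives or partners of RUNX1 and MYB that reached the floor. For line, 1 of 4 C/EBP relatives was higher in Siglec-14/THP-1 (DDIT3, the stress factor CHOP) and 1 lower (CEBPZ), and of the ETS genes 1 was higher (ETS1) and 1 lower (FLI1). FLI1, a factor of stem cells and megakaryocytes, had 265 in Siglec-14,NTHi[+] and 308 in Siglec-14,NTHi[-] against 378 in Siglec-5,NTHi[+] and 537 in Siglec-5,NTHi[-]. Of the IRF genes 2 were higher, IRF1 and IRF9, both of the interferon response. Of the KLF genes 2 were higher, KLF6 and KLF13, and 1 was lower, KLF16. Among the RUNX1 and MYB relatives and partners LMO2, a bridging protein of the stem cell complex, was lower. RUNX2, counted as higher, reached the floor only in Siglec-14/THP-1 (27.0 with and 34.3 without NTHi), and its geometric mean signal of 17.7 is under the limit of 32 kept for printed p-values.
Of other regulators of myeloid fate, 9 of 12 with a probe set of their own reached the floor, 3 were higher in Siglec-14/THP-1 and 0 lower, and 0 passed for NTHi. The shares of all genes tested that passed were 11.2% for line and 1.28% for NTHi. EGR1, a factor that promotes macrophage maturation, had 520 in Siglec-14,NTHi[+] and 482 in Siglec-14,NTHi[-] against 75.1 in Siglec-5,NTHi[+] and 54.9 in Siglec-5,NTHi[-]. The other two were ID2, counted above as well, and NAB2, a corepressor of EGR1. Of 6 genes of the program that KMT2A fusions drive in leukemias like THP-1, 0 passed for NTHi, and for line 1 passed, CDK6, lower in Siglec-14/THP-1 with 2160 in Siglec-14,NTHi[+] and 1953 in Siglec-14,NTHi[-] against 2899 in Siglec-5,NTHi[+] and 2730 in Siglec-5,NTHi[-] (term -0.45, limma adjusted p = 0.0497). MEIS1, a HOX partner, and FLT3, a receptor kinase of progenitors, did not pass.

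Of 9 monocyte markers with a probe set of their own, 7 reached the floor, among them LYZ (3036 to 3430) and FCER1G (969 to 1283), while CD14 and FCGR1A lay below it on all 4 arrays. Their summed signal was 5334 in Siglec-14,NTHi[+], 5165 in Siglec-14,NTHi[-], 4657 in Siglec-5,NTHi[+] and 4891 in Siglec-5,NTHi[-]. For line 3 were higher in Siglec-14/THP-1 and 0 lower, while 11.2% of all genes tested passed. These were CD86, ITGAM and TYROBP, of which ITGAM and TYROBP were counted above among the targets of PU.1 and C/EBP as well. The largest difference was that of CD86, a costimulatory ligand, with 196 and 218 in Siglec-14,NTHi[+] and Siglec-14,NTHi[-] against 17.7 and 37.6 in Siglec-5,NTHi[+] and Siglec-5,NTHi[-]. For NTHi 0 of the 7 passed. The 5 measured B cell markers summed to 282 in Siglec-14,NTHi[+], 257 in Siglec-14,NTHi[-], 315 in Siglec-5,NTHi[+] and 369 in Siglec-5,NTHi[-], and 3 of them lay above the floor on every array, EBF1 (122 to 209), PAX5 (69.8 to 109) and CD79A (28.7 to 37.4). MS4A1, which defines mature B cells, and POU2AF1 lay below it on every array. The 8 markers of T and NK cells summed to between 104 and 117 on each array, and the 5 of erythroid cells and megakaryocytes to between 97.5 and 126. No marker of these other lineages passed for line or NTHi. SIGLEC5 itself had 19.5 in Siglec-14,NTHi[+], 21.3 in Siglec-14,NTHi[-], 21.6 in Siglec-5,NTHi[+] and 4.13 in Siglec-5,NTHi[-], and no probe set of SIGLEC14 alone was found. The sources used here do not say whether that probe set reads the introduced receptor sequence, so its signals do not check the labels of the lines.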

How the data were processed

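The authors quantified GeneChip Human Genome U133 Plus 2.0 arrays with GeneChip Operating Software (version not given in the sources used here) and standardized them on the cumulative signal. The deposited values are signal intensities on a linear scale, used without further scaling. Array sums ran from 12735500 to 14047100, and median signals from 15.1 to 16.5.

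Probe sets were joined to genes with the platform annotation. Of 54675 probe sets, 62 were controls, 41091 of the others listed 1 gene, 1801 several and 11721 none. A gene was represented by its probe set with the highest mean signal. The floor was the median of all signals, 16.

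Cell line and NTHi were fitted as additive terms to log2 signals of 31981 probe sets with limma 3.58.1 (R 4.3.3, intensity trend, Benjamini-Hochberg over all of them). With 4 arrays and 3 coefficients the fit leaves 1 residual degree of freedom. In this fit limma took the variance from the trend alone, so that a gene's own residual did not widen its standard error. In a test on simulated data false calls lay mainly among dim probe sets, so adjusted p-values are given only for probe sets with a geometric mean signal of at least 32, a limit set after seeing the data. Other scalings, floors, folds, pseudocounts and probe set choices were tried. Python 3.11.15 with pandas 2.3.3 did the rest.

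Named were all members, list genes at least 3-fold different at or above the 75th percentile of all signals (105) or past the test for NTHi, and the 3 genes most like a member. The other list genes named were chosen after their values were seen. Members and the 15 other lists were chosen with earlier results of these data known.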

Additional observations from a re-analysis of the deposited data

Results flagged for a closer look

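As deposited, for 5 factors the signal was higher with NTHi in Siglec-14/THP-1 and lower with NTHi in Siglec-5/THP-1. The log2 response in Siglec-14/THP-1 minus that in Siglec-5/THP-1 was 0.74 for BCL6, 0.38 for CEBPB, 0.26 for IRF8, 0.26 for KLF4 and 0.08 for CEBPA. Under the 4 scalings tried, these opposite signs held in all 4 for BCL6, in 3 for CEBPB, in 1 for KLF4 (equal sum), in 1 for IRF8 (equal median) and in 0 for CEBPA. The median log2 response of all genes at or above the floor also had opposite signs, 0.08 in Siglec-14/THP-1 and -0.11 in Siglec-5/THP-1. Among the genes most like BCL6, the same opposite signs were seen for CDKN1C, with a difference of 0.86, and RGS2, with 0.42. They held under 4 scalings for CDKN1C and under 2 for RGS2. CDKN1C and RGS2 were chosen for their likeness to BCL6 on these same arrays, so the shared signs follow largely from that choice. None of these differences was tested, because 1 array per condition leaves no residual for an interaction.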

How the results depend on the processing

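The higher BCL6 signal in Siglec-14/THP-1 was at least 3-fold in both conditions under every scaling, floor and pseudocount tried. At 1.5-fold, 3 factors differed with NTHi (CEBPB, MYB and BCL6) and 3 without (KLF4, MYB and BCL6). With each gene represented by its probe set of largest ratio, the dim probe set of KLF4 made 1 factor 3-fold different with NTHi in Siglec-5/THP-1, and made 2 so different between the lines with NTHi, and its difference of responses was 2.78. The line calls rest on the intensity trend: without it 0 factors and 0 genes passed for line, with 1659 genes at an unadjusted p under 0.05, and the adjusted p of BCL6 was 0.194. The number of factors past the line test also moved with scaling, with BCL6 and MYB among them each time: 5 factors passed (with CEBPB, IRF8 and KLF4) with arrays at an equal sum, 5 at an equal trimmed mean, 5 by quantiles and 6 at an equal median (CEBPD too), against 2 with signals as deposited. Of all genes, 26.2% passed at an equal sum, 26.5% at an equal trimmed mean, 22.4% by quantiles and 23.2% at an equal median, where 1032 were higher and 2203 lower, against 869 and 690 as deposited. For NTHi, 1 factor (MYB) passed at an equal sum, 1 at an equal trimmed mean and 1 by quantiles, where 715, 756 and 331 of all genes passed, and 363 passed at an equal median, against 179 as deposited. The cause of these shifts was not tested. Terms of CEBPA near 0 changed sign at an equal median (0.04 for NTHi and -0.03 for line). Without the other factor 0 genes passed for NTHi, with 289 at an unadjusted p under 0.05. No paired analysis was possible because the labels carry no replicate numbers and each condition has 1 array; the additive fit itself compares NTHi within lines and lines within conditions. Signals under the floor limit the dim probe sets of BCL6, KLF4 and CEBPD to bounds or to no value.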
